A study of Homo sapiens with 36 samples.

Results

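Aminoacyl-tRNA synthetases, the enzymes that join each amino acid to its transfer RNA, were followed through 36 RNA-seq libraries of EA.hy926 cells exposed to perfluorooctanoic acid (PFOA), a persistent perfluorinated surfactant. The 35 genes were taken by name from 18048 genes with values, and comprised 19 genes of cytosolic and 16 of mitochondrial enzymes. EA.hy926 is a human line made by fusing umbilical vein endothelial cells with the lung carcinoma line A549, and the cells used here were wild type. Cells received 1, 10 or 100 µM PFOA for 48 h, or 1, 10 or 100 nM PFOA for 6 or 12 weeks, and each exposure time had its own vehicle control. Each of the 12 groups had 3 libraries, called biological replicates in the labels. Every group, the controls included, received 0.05% DMSO and a medium with hypoxanthine, aminopterin and thymidine. The 48 h cultures were lysed in the dish, whereas long-exposure cells were trypsinised and pelleted while being passaged, so exposure length and harvest cannot be told apart between 48 h and the longer exposures. The series was set up to describe how transcripts respond to concentration.

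Each cytosolic enzyme charges the transfer RNAs that serve the ribosomes of the cytosol, and a largely separate nuclear-encoded set charges those of mitochondria. GARS1 and KARS1 are exceptions, since each gene makes both the cytosolic and the mitochondrial enzyme. EPRS1, IARS1, KARS1, LARS1, MARS1, QARS1 and RARS1 are held in the multisynthetase complex, on the scaffold proteins AIMP1, AIMP2 and EEF1E1. When uncharged transfer RNA or unfolded protein slows translation initiation, the transcription factor ATF4 is made and switches on amino acid synthesis and transport genes together with many cytosolic synthetase genes. The 13 cytosolic members commonly described as ATF4 targets (AARS1, CARS1, EPRS1, GARS1, IARS1, LARS1, MARS1, NARS1, SARS1, TARS1, VARS1, WARS1 and YARS1) are called ATF4-listed here, against 6 other cytosolic members.

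ATF4 binds as a partner of C/EBP proteins to elements with the core TGATGNAA, so this core was looked for on both strands of RefSeq promoters that run from 250 bases before to 50 bases after each gene start (GRCh38.p14). It was found in 7 of the 30 members with a promoter in the table (23.3%), against 1003 of 27305 promoters (3.67%). Of the ATF4-listed members, 6 of 10 with a promoter held it (60.0%), against 0 of 6 other cytosolic members and 1 of 14 mitochondrial members (7.14%). The 30-base windows around the matches are shown because 6 of the 7 belong to ATF4-listed members. They are written 5′ to 3′ along the gene, and capitals mark the core or its reverse complement.
AARS1: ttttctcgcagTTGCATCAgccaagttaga
CARS1: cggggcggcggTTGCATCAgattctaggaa
IARS1: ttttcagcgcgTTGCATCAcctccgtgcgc
MARS1: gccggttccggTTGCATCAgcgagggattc
NARS1: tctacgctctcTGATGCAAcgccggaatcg
TARS1: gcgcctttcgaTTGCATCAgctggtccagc
YARS2: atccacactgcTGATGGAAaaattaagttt

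The windows lie at chr16:70289675-70289704 for AARS1, chr11:3057407-3057436 for CARS1, chr9:92293692-92293721 for IARS1, chr18:57621804-57621833 for NARS1 and chr12:32756076-32756105 for YARS2, all on the minus strand. Those of MARS1 at chr12:57488053-57488082 and TARS1 at chr5:33440956-33440985 are on the plus strand. The first base of the core lay within 15 bases of the start used for the promoter in CARS1 (-2), MARS1 (-4), IARS1 (-13), TARS1 (3) and NARS1 (15). It lay farther upstream in AARS1 (-187) and YARS2 (-197). For TARS1 that start is 33440965, whereas the gene is annotated from 33440696, so its match lies inside the annotated gene. The core read TGATGGAA in YARS2, the mitochondrial tyrosyl enzyme, and TGATGCAA in the other 6 genes. A match describes the letters in the window and is no evidence of binding.

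The deposited values are normalised read counts, that is reads scaled by the size factor of their library, and the libraries held 17815292 to 19466331 reads. All 35 members had a mean of at least 10 in each of the 3 tables, so none was lost to the filter, and the lowest was MARS2 with means of 41.6 at 48 h, 52.5 at 6 weeks and 75.2 at 12 weeks. Endothelial markers were present in the line, with 8 of 9 at a mean of at least 10, although KDR was near 0 at medians of 1.37 to 2.14. Ribosomal protein transcripts took 9.37% to 22.2% of reads in a library, a share that is given by dose beside the results of each time. Reads from 16 members could be split with another annotated locus, since 5 overlap a protein-coding gene (MARS1, YARS1, CARS2, EARS2 and FARS2) and 11 have a pseudogene copy (AARS1, CARS1, FARSB, GARS1, KARS1, NARS1, RARS1, WARS1, IARS2, TARS2 and WARS2). In bulk RNA, fewer cells with a transcript and less of it per cell cannot be told apart.

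Cytosolic synthetases were the more abundant class in every group. Per kilobase of transcript, the median cytosolic member had 669 normalised counts in 48 h controls, 1124 in 6-week controls and 1326 in 12-week controls, and the median mitochondrial member had 127, 194 and 139 in the same groups. Of the 304 pairings of a cytosolic with a mitochondrial gene, the mitochondrial gene was higher in 6 to 22, depending on the group. At the top in 48 h controls were SARS1, the seryl enzyme, at 1699 ± 155 counts per kilobase, FARSA, the catalytic subunit of the phenylalanyl enzyme, at 1580.5 ± 623, QARS1, the glutaminyl enzyme, at 1491 ± 214, and MARS1, the methionyl enzyme, at 1373 ± 4.11 (SD, n = 3 each). Neighbours among these top genes did not differ beyond their spread. At the bottom stood MARS2, the mitochondrial methionyl enzyme, at 14.8 ± 5.82 counts per kilobase.

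The gap between the cytosolic and the mitochondrial enzyme for the same amino acid differed widely between amino acids. In the 3 libraries of the 12-week control, MARS1 stood 156-fold to 879.5-fold above MARS2 per kilobase, AARS1 39.1-fold to 49.5-fold above AARS2, SARS1 13.8-fold to 24.05-fold above SARS2 and IARS1 2.20-fold to 3.53-fold above IARS2. In the 48 h control the ratio was 74.0-fold to 170.0-fold for methionine, 10.3-fold to 12.2-fold for alanine, 3.27-fold to 5.54-fold for serine and 1.07-fold to 1.29-fold for isoleucine. TARS1 stood at 0.402 to 3.73 times TARS2 in 12-week controls, 0.247 to 1.84 times in 6-week controls and 0.747 to 1.91 times in 48 h controls, so single libraries set which of the pair was higher.

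**Figure D1:**
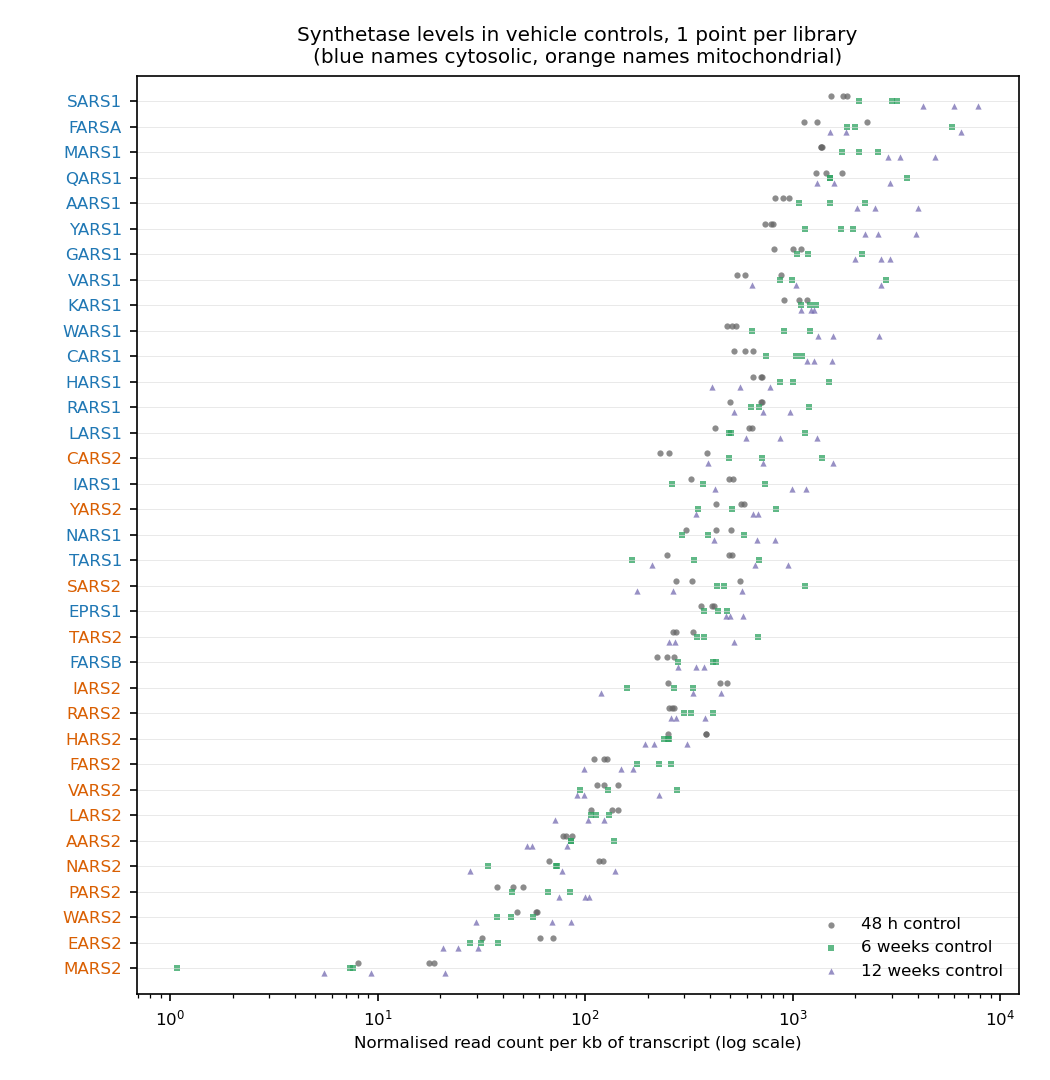
Normalised read count per kilobase of transcript (log axis) of each synthetase gene in the vehicle controls, with 1 point for each library of the 48 h, 6-week and 12-week controls. Cytosolic genes (blue names) fill most of the upper rows, with SARS1 highest, and mitochondrial genes (orange names) most of the lower ones, with MARS2 lowest.

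After 48 h at 100 µM, cytosolic synthetases leaned upward, mitochondrial ones were split, and no member passed the test. Of 19 cytosolic genes, 17 had a higher mean than the control, with a median log2 difference of 0.42, against 8 of 16 mitochondrial genes with a median of 0.02. Under quantile normalisation 15 of the 19 were higher and their median was 0.21. By GC content of the transcript, 7 of 9 mitochondrial genes at or above the members' median of 50.8% were higher (median 0.32). Below that GC content 1 of 7 was higher (median -0.07). The cytosolic counts in the same order were 9 of 9 (median 0.52) and 8 of 10 (median 0.22). Over all 12233 genes tested, 53.7% were higher and the median log2 difference was 0.03. The ATF4-listed members had a median log2 difference of 0.52, with 11 of 13 higher. The other cytosolic members had a median of 0.39, with 6 of 6 higher. The mean log2 level of listed members minus that of the others averaged 0.10 in the control and 0.09 at 100 µM, so their balance hardly moved. In limma, no gene passed at an adjusted p under 0.05 (0% of all genes), and 2 members had an unadjusted p under 0.05, against 1.99% of all genes. In edgeR and in DESeq2 the number of members called was also 0. Ribosomal protein transcripts took 12.1% to 17.1% of reads in the 48 h control, 10.9% to 16.3% at 1 µM, 10.1% to 20.9% at 10 µM and 13.96% to 19.8% at 100 µM. The 5 epithelial markers summed to 36759 to 104457 counts in the control, 29011 to 82935 at 1 µM, 26396 to 227179 at 10 µM and 61500 to 107547 at 100 µM, and the 9 endothelial markers to 38264.5 to 59218, 31552.5 to 47940, 30313 to 122870 and 34320 to 83624 in the same order. Their part in the 48 h differences was not tested.

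The members with the smallest p at 100 µM were LARS1, CARS1 and AARS1, which charge leucine, cysteine and alanine. LARS1 had 3717, 4013 and 3683 normalised counts at 100 µM, against 2949.6, 3046 and 2019.6 in the control (log2 difference 0.53 ± 0.23 SE, limma adjusted p = 0.993). CARS1 had 2533, 2461 and 1953 counts at 100 µM, against 1773, 1620.4 and 1437 in the control. AARS1 had 4933, 6057 and 3649 counts at 100 µM, against 3130.2, 2869.7 and 3331 in the control (log2 difference 0.62 ± 0.36, limma adjusted p = 0.993). In all 3 genes every library at 100 µM lay above every control library. Such separation upward was seen in 10 members, 8 cytosolic and 2 mitochondrial, against 4.32% of all genes, and separation downward in 0 members, against 6.46%.

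Among mitochondrial enzymes at 100 µM, FARS2, which charges phenylalanine, had 368, 329 and 218 counts, against 214, 187 and 208 in the control (log2 difference 0.55 ± 0.34, limma adjusted p = 0.993). RARS2, the arginyl enzyme, had 692, 583 and 589 counts at 100 µM, against 487, 474 and 459.7 in the control. These were the 2 mitochondrial genes without overlap. CARS2, the cysteinyl enzyme, had the largest mean difference of the family but overlapped, with 1224, 1825 and 409.5 counts at 100 µM, against 476, 429.9 and 728 in the control (log2 difference 0.87 ± 0.70). NARS2 and MARS2 lay lowest, with log2 differences of -0.58 ± 0.69 and -0.65 ± 0.93.

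At 10 µM for 48 h, 16 of 19 cytosolic and 10 of 16 mitochondrial members were higher than the control, with median log2 differences of 0.33 and 0.13, and limma called 0 members (0% of all genes). Under quantile normalisation 13 of the 19 cytosolic members were higher, with a median of 0.08. LARS1 had 4262, 3707 and 3791 counts at 10 µM, against 2949.6, 3046 and 2019.6 in the control (log2 difference 0.57 ± 0.23, limma adjusted p = 0.960). LARS1 and RARS1 were the 2 members without overlap upward, against 2.67% of all genes, and 0 members lay wholly below the control, against 3.52%. Of the family, LARS1 alone had an unadjusted p under 0.05, against 2.82%. The third 10 µM library stood apart from the other two: VARS1, the valyl enzyme, read 3770.2, 1838 and 10285 counts there and TARS1 1359, 2795 and 511. At 1 µM the median log2 difference was 0.03 for cytosolic and 0.02 for mitochondrial members, with a range of -0.25 to 0.32 over the family, and no member was called (0% of all genes) or had an unadjusted p under 0.05 (0.049% of all genes).

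Through the 48 h doses LARS1 averaged 2672 ± 567 counts in the control, 3151 ± 498 at 1 µM, 3920.3 ± 299 at 10 µM and 3804 ± 181 at 100 µM (SD, n = 3 each). CARS1 averaged 1610.0 ± 168, 1639.6 ± 66.2, 2024 ± 508 and 2316 ± 316 counts in the same order. KARS1, the lysyl enzyme, stayed nearer to its control, at 2541 ± 314, 2612 ± 114, 2603 ± 545 and 2847 ± 176 counts. A slope through the 4 dose groups gave 2 members with an unadjusted p under 0.05, LARS1 and CARS1, against 4.25% of all genes, and limma called 0 members for it (0% of all genes; adjusted p = 0.808 for both). With 10 and 100 µM together against control and 1 µM, the same 2 genes had an unadjusted p under 0.05, against 5.66% of all genes, and limma called 0 members (0% of all genes; adjusted p = 0.654 for both). LARS1 was the only member whose 6 libraries at 10 and 100 µM all lay above the other 6, against 0.18% of all genes.

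**Figure D2:**
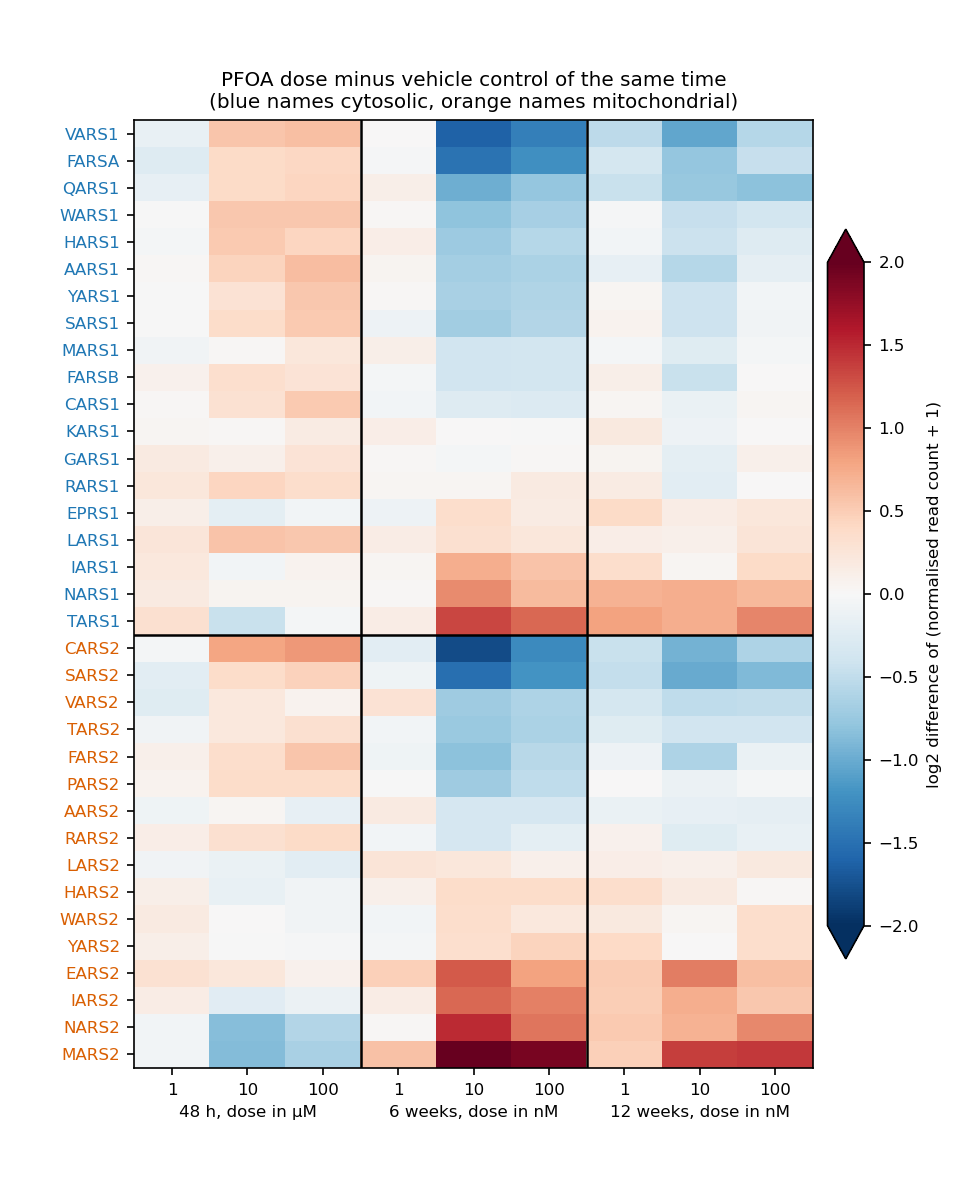
Log2 difference of each dose from the vehicle control of the same time, for the 19 cytosolic genes (blue names, above the line) and 16 mitochondrial genes (orange names). Colours saturate at 2 in either direction. At 48 h most cytosolic genes are red at 10 and 100 µM, while at 6 weeks the family splits at 10 and 100 nM into genes that lie lower, led by VARS1, FARSA, CARS2 and SARS2, and genes that lie higher, led by TARS1, NARS2 and MARS2.

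After 6 weeks the synthetases moved in opposite directions within each class at 10 and 100 nM. With these 6 libraries set against the 6 libraries of the control and 1 nM, limma called 13 of 35 members, against 37.2% of 12201 genes. Higher were 5 members (17.8% of all genes), and lower were 8 (19.3%). The cytosolic class gave 2 higher and 6 lower of 19, and the mitochondrial class 3 higher and 2 lower of 16. At an unadjusted p under 0.05 there were 20 members, against 57.3% of all genes. The members' share was thus near that of all genes, and the dose split was chosen with earlier results of these data known. Other scalings moved the balance of directions: 7 members were called higher and 6 lower under quantile normalisation, 0 and 8 in edgeR, and 5 and 15 in DESeq2.

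Among cytosolic enzymes at 6 weeks, VARS1 fell furthest. It had 12122, 4259 and 3748 counts in the control, 1888, 8237 and 12552 at 1 nM, 2206, 1729.8 and 1752 at 10 nM, and 1805, 2235 and 2772 at 100 nM. The log2 difference of 10 and 100 nM from control and 1 nM was -1.50 ± 0.44 (limma adjusted p = 0.0462). Thus all 6 libraries at 10 and 100 nM lay below all 3 controls, but the first 1 nM library lay among them. FARSA had 2710.2, 1588 and 2025 counts at 10 nM and 2037, 2559 and 2791 at 100 nM, against 12094, 3778 and 4089.8 in the control (-1.34 ± 0.45, adjusted p = 0.0462 in limma). QARS1 had 3219, 2706 and 2782 counts at 10 nM and 2875, 3615 and 3531 at 100 nM, against 10048, 4285 and 4279 in the control (-0.93 ± 0.33, adjusted p = 0.0470 in limma). In both genes the first control library stood far above the other two. WARS1, HARS1 and SARS1, which charge tryptophan, histidine and serine, also fell, with log2 differences of -0.74 ± 0.26, -0.72 ± 0.25 and -0.59 ± 0.21 (limma adjusted p = 0.0466, 0.0476 and 0.0490). These 3 genes and QARS1 did not pass under quantile normalisation, where SARS1 differed by -0.04 and QARS1 by -0.34.

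TARS1 and NARS1, which charge threonine and asparagine, were the 2 cytosolic members that rose at 6 weeks. TARS1 had 3429.7, 4171 and 3514 counts at 10 nM and 3819, 3109 and 2875 at 100 nM, against 727, 2969.7 and 1437 in the control (1.17 ± 0.42, limma adjusted p = 0.0477). NARS1 had 2044, 2975 and 2338 counts at 10 nM and 2423, 1849 and 1678 at 100 nM, against 912, 1804 and 1217 in the control (0.78 ± 0.27, limma adjusted p = 0.0472). At 100 nM both genes overlapped the control, and at 10 nM neither did. KARS1 did not pass, with 3064, 2948 and 2772 counts at 10 nM and 2874, 2949 and 2796 at 100 nM, against 3131, 2926 and 2659 in the control (log2 difference -0.06 ± 0.15).

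In the mitochondrial class at 6 weeks, CARS2 and SARS2 fell and IARS2, NARS2 and MARS2 rose. CARS2 had 565, 397 and 351 counts at 10 nM and 429.7, 582 and 899 at 100 nM, against 2612, 1330.3 and 930.2 in the control (-1.42 ± 0.42, limma adjusted p = 0.0462). SARS2 had 609, 345 and 425 counts at 10 nM and 459, 559.6 and 654 at 100 nM, against 2366, 893 and 961 in the control (-1.31 ± 0.42, limma adjusted p = 0.0462). Neither gene overlapped the control at either dose. IARS2, the isoleucyl enzyme, had 1544, 2258 and 1963 counts at 10 nM and 1925, 1715 and 1575 at 100 nM, against 564, 1179 and 955 in the control (1.00 ± 0.32, limma adjusted p = 0.0462). NARS2, the asparaginyl enzyme, had 359, 440.0 and 418 counts at 10 nM and 361, 322 and 230.0 at 100 nM, against 85.7, 182 and 185 in the control (1.27 ± 0.42, limma adjusted p = 0.0462). MARS2 had 84.0, 114 and 91.9 counts at 10 nM and 98.2, 77.3 and 14.8 at 100 nM, against 3.23, 23.0 and 22.2 in the control (2.09 ± 0.67, limma adjusted p = 0.0462). MARS2 thus overlapped the control through 1 library at 100 nM and rested on few reads.

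**Figure D3:**
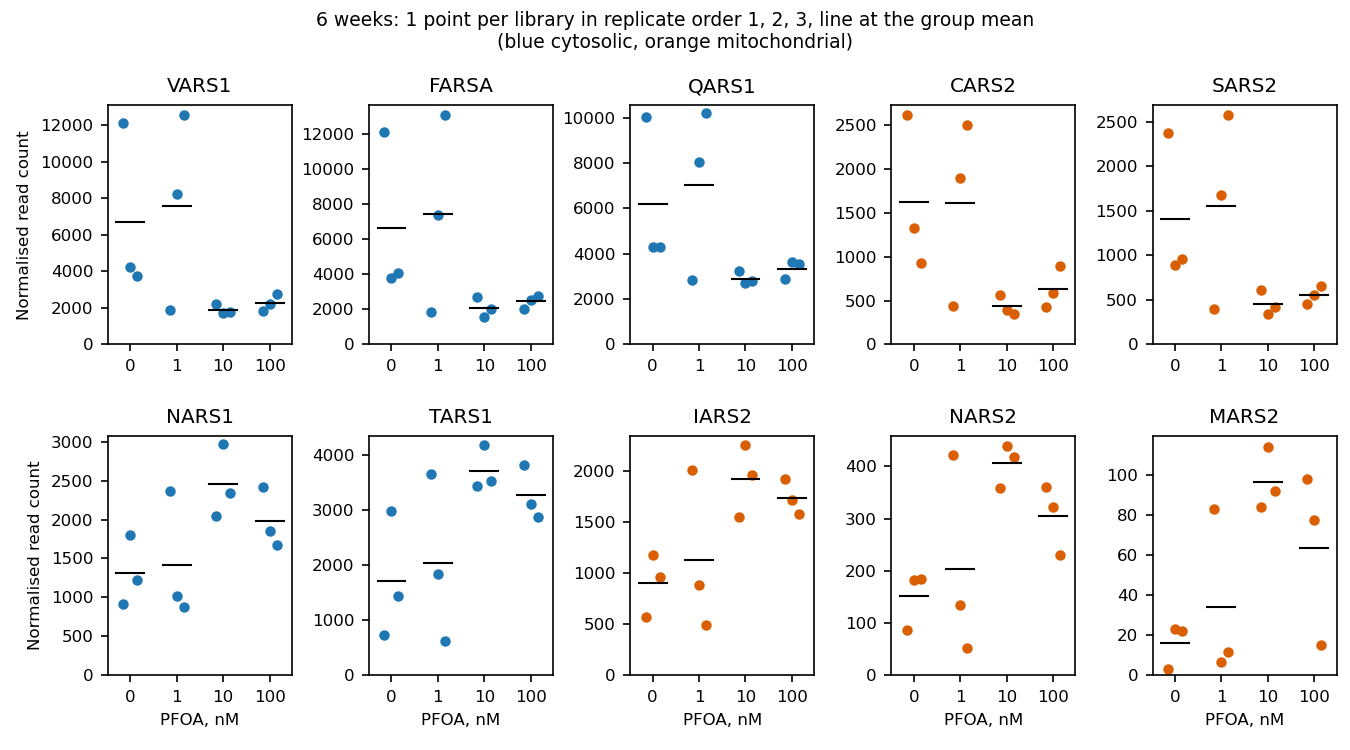
Normalised read counts at 6 weeks of 10 synthetases that passed the test of 10 and 100 nM against control and 1 nM, with 1 point per library at each dose in nM and a line at the group mean. The first 1 nM library lies with the 10 and 100 nM libraries in each gene, for example VARS1 at 1888 counts beside 8237 and 12552 in the other 1 nM libraries.

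These calls turned on single libraries and on the setting. The first 1 nM library lay with the higher doses for VARS1 (1888), FARSA (1875), TARS1 (3641) and IARS2 (2007), against 8237 and 12552, 7358 and 13076, 1827 and 626, and 885 and 486 counts in the other 1 nM libraries. Without it, 27 members were called (69% of all genes). Without control replicate 2, 15 members were called (47.8% of all genes), and with any other library left out 0. With a pseudocount of 10 and with a mean of at least 50, 15 were called as well (38.5% and 41.6% of all genes). On recovered reads edgeR called 8 members (22.8% of all genes) and DESeq2 20 (48.1%). No member was called with a replicate block, without the filter on low genes, when the first principal component entered the fit, or after a correction for GC content and length. Ribosomal protein transcripts took 17.2% to 19.4% of reads in the control, 11.39% to 19.03% at 1 nM, 9.37% to 13.4% at 10 nM and 11.7% to 16.3% at 100 nM. Epithelial markers moved with these calls too: of the 4 tested, KRT7, KRT8 and KRT18 fell by 1.35, 1.42 and 1.35 on the log2 scale. The 5 listed epithelial markers summed to 74289.5 to 142614 counts in the control, 27247 to 184094 at 1 nM, 20564 to 40879 at 10 nM and 28589.9 to 55540.5 at 100 nM. Of 8 endothelial markers tested, CDH5 and ERG rose and ENG and EGFL7 fell, and the 9 listed summed to 37229.7 to 85766 counts in the control, 21517 to 93604 at 1 nM, 20481 to 26317 at 10 nM and 22682 to 29950.4 at 100 nM. The 3 listed leukocyte markers summed to 1598 to 6574 counts in the control, 1546 to 6935 at 1 nM, 1397 to 2034 at 10 nM and 1701 to 2197 at 100 nM, nearly all of it from CD68 (log2 difference -0.85, limma adjusted p = 0.0884), with PTPRC and LYZ at medians of 0 and 1.17. The 4 listed fibroblast markers summed to at most 28.0 counts in a library at 6 weeks. The part of ribosomal and marker transcripts in these results was not tested.

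Set singly against the 6-week control, 10 nM and 100 nM gave the same directions without calls (0% of all genes at each dose in limma). At 10 nM, 8 members lay wholly above and 13 wholly below the control, against 30.6% and 29.8% of all genes, and 14 members had an unadjusted p under 0.05, against 44% of all genes. The largest differences were those of MARS2 at 2.86 ± 0.95, CARS2 at -1.79 ± 0.60 and VARS1 at -1.62 ± 0.62, each with a limma adjusted p of 0.0953. EARS2, the mitochondrial glutamyl enzyme, had 226, 393 and 305 counts at 10 nM, against 150.3, 111 and 124 in the control (1.23 ± 0.41, limma adjusted p = 0.0953). At 100 nM, 3 members lay above and 11 below the control, against 22.9% and 24.4%, and 2 members had an unadjusted p under 0.05, against 12.2%. There VARS1 differed by -1.37 ± 0.62 and CARS2 by -1.28 ± 0.60 (limma adjusted p = 0.272 for both). edgeR called 0 members at either dose, and DESeq2 called 7 at 10 nM (30.4% of all genes) and 0 at 100 nM. With only the 6 libraries compared in the limma fit, 11 members were called at 10 nM (38.9% of all genes). At 1 nM the family's median log2 difference was 0.02. There limma called 0 members (0% of all genes) with 0 at an unadjusted p under 0.05 (0.254%), and LARS2 was the only member without overlap (0.25 ± 0.23; 0.754% of all genes upward).

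A slope through the 4 doses at 6 weeks called 0 members in limma and in edgeR (0% of all genes in limma), 10 in DESeq2 (26% of all genes), and 19 at an unadjusted p under 0.05 in limma (44.6%). The slopes with the smallest p in each class, per dose step, were -0.57 ± 0.20 for VARS1, -0.51 ± 0.20 for FARSA, -0.54 ± 0.19 for CARS2, 0.40 ± 0.14 for IARS2 and -0.50 ± 0.19 for SARS2 (limma adjusted p = 0.0979 for each), and 0.47 ± 0.19 for TARS1 (limma adjusted p = 0.0981). Without the first 1 nM library 21 members were called for the slope (58.1% of all genes).

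After 12 weeks no member passed in any dose comparison or slope (0% of all genes in limma), nor in edgeR or DESeq2. Ribosomal protein transcripts took 16.46% to 21.39% of reads in the 12-week control, 15.98% to 19.53% at 1 nM, 12.19% to 22.18% at 10 nM and 11.07% to 18.99% at 100 nM. At 10 nM, 5 of 19 cytosolic members had a mean above the control, with a median log2 difference of -0.24, and 8 of 16 mitochondrial members. Under quantile normalisation 9 cytosolic members did, with a median of -0.02. EARS2 had 143, 255 and 221 counts at 10 nM, against 81.3, 96.3 and 121 in the control (1.02 ± 0.38, limma adjusted p = 0.655). It was the only member above the control without overlap at that dose (2.06% of all genes upward) and the only one with an unadjusted p under 0.05 (1.37%). NARS1 lay above the control mean at every dose, with 2091, 1293 and 2543 counts in the control, 3598, 2221 and 3625 at 1 nM, 2032, 3847 and 3937 at 10 nM and 2322, 2372 and 4768 at 100 nM. Its log2 differences of 0.69, 0.72 and 0.64 had standard errors of 0.41. The groups overlapped at each dose.

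At 100 nM for 12 weeks the largest differences belonged to MARS2 at 1.42 ± 0.79, TARS1 at 0.98 ± 0.54, NARS2 at 0.96 ± 0.61, SARS2 at -0.88 ± 0.54 and QARS1 at -0.82 ± 0.46 (limma adjusted p = 0.751 for each), with 0 members at an unadjusted p under 0.05, against 2.33% of all genes. At 1 nM the largest was that of TARS1 at 0.80 ± 0.54. EPRS1, the enzyme for glutamate and proline, was the only member without overlap at 1 nM, with 3297, 3075 and 3763 counts at 1 nM, against 2493, 2400.4 and 2903 in the control (1.66% of all genes upward), and 0 members had an unadjusted p under 0.05 (0.195%). For 10 and 100 nM against control and 1 nM, MARS2 at 1.16 ± 0.56 and EARS2 at 0.55 ± 0.27 came nearest to the threshold (limma adjusted p = 0.673 for both), with 0 members at an unadjusted p under 0.05, against 1.14%. The slope through the doses likewise gave 0 members at an unadjusted p under 0.05 (2.22% of all genes).

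Whether the dose differences changed between 6 and 12 weeks was tested directly in the 24 long-exposure libraries. No member was called at 1, 10 or 100 nM (0% of all genes in limma), none in edgeR or DESeq2, and none had an unadjusted p under 0.05 (0.252%, 0.407% and 0.618% of all genes). The largest of these differences of differences at 10 nM were those of MARS2 at -1.49 ± 1.34, CARS2 at 0.83 ± 0.96, NARS2 at -0.80 ± 0.91 and FARSA at 0.70 ± 0.95 (limma adjusted p = 0.908 for each). With errors of this size, a loss of the 6-week differences by 12 weeks was not shown, nor was their persistence.

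The class means put the cytosolic and mitochondrial enzymes side by side. At 48 h the mean log2 difference from the control was 0.05 for cytosolic and 0.02 for mitochondrial members at 1 µM, 0.24 and 0.04 at 10 µM, and 0.34 and 0.08 at 100 µM. At 6 weeks it was 0.04 and 0.09 at 1 nM, -0.26 and 0.07 at 10 nM, and -0.24 and 0.04 at 100 nM. At 12 weeks it was 0.08 and 0.09 at 1 nM, -0.23 and 0.01 at 10 nM, and -0.01 and 0.10 at 100 nM. On the normalised counts the cytosolic mean thus lay above the control at 48 h and below it at 10 nM in both long exposures. The mitochondrial mean stayed between 0.01 and 0.10. In CPM of recovered reads (reads scaled to equal library totals) the picture at 10 nM differed. Cytosolic members together averaged 3032 CPM in 6-week controls and 3620 at 10 nM, with overlap. Mitochondrial members averaged 436 and 608, without overlap. At 12 weeks these averages were 4279 and 4469 for cytosolic and 396 and 471 for mitochondrial members, with overlap in both. The direction of the classes at 10 nM thus depended on the measure. The difference between the classes was 0.26 at 100 µM for 48 h (0.136 under quantile normalisation), where the spread of the same quantity among libraries of a group was 0.09 (SD), -0.33 at 10 nM for 6 weeks (SD 0.14) and -0.24 at 10 nM for 12 weeks (SD 0.20). Under quantile normalisation the 6-week and 12-week class differences at 10 nM were 0.22 and 0.07 and that at 100 nM for 6 weeks was 0.187, so scaling turned the direction in these long-exposure groups and lessened the 48 h difference.

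Within each time, most of the spread of the synthetases followed a single axis shared with the rest of the transcriptome. The first principal component of all genes carried 78.0% of the variance at 48 h, 83.8% at 6 weeks and 69.2% at 12 weeks, and accounted for 84.6%, 84.9% and 72.6% of the variance of the median member. Of the 35 members, 20 had a positive loading in all 3 tables (12 cytosolic and 8 mitochondrial), 12 a negative one in all 3 (4 and 8), and 3 a mixed one, namely GARS1, LARS1 and RARS1. The positive group held VARS1, FARSA and CARS2, the negative group TARS1, NARS2 and MARS2. Members of 1 class thus lay at both ends of this axis in every table. Library scaling varied as well. The lowest ratio of normalised counts to recovered reads was 0.737, in the second 10 nM library of 6 weeks. The highest was 1.85, in the second 12-week control. The third 10 µM library had 1.74 and the first 6-week control 1.62. The first 1 nM library of 6 weeks had 0.750, against 1.33 and 1.65 in its group. The part of library scaling in this axis was not tested.

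The sets were also set side by side in base composition. GC content of the transcript (longest in GENCODE release 29) had a median of 54.3% over the 20 members of positive loading (range 41.6% to 62.6%) and 44.1% over the 12 of negative loading (42.4% to 51.6%), so the ranges overlapped. Among the members named above it was 62.6% for VARS1, 61.2% for SARS2, 60.3% for FARSA and 56.4% for CARS2, against 43.6% for TARS1, 43.9% for NARS2 and 48.4% for MARS2. Across the 35 members, which share libraries, Pearson's r between GC content and the log2 difference was 0.37 at 100 µM for 48 h and -0.63 at 10 nM for 6 weeks, against 0.23 and -0.69 across all genes with a known GC content. Of the 18 members at or above the median GC of 50.8%, 16 were lower than the control at 10 nM for 6 weeks. At 100 µM for 48 h, 16 of these 18 were higher than the control (median 0.45). Of the 17 members below the median GC, 9 were higher there and 8 lower (median 0.06). These values are descriptions across genes, which are not independent replicates, and the part of base composition in the differences was not tested. RARS1 and LARS1, with the lowest GC contents of the family at 41.4% and 41.5%, were among those 9 members, by 0.36 and 0.53.

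**Figure D4:**
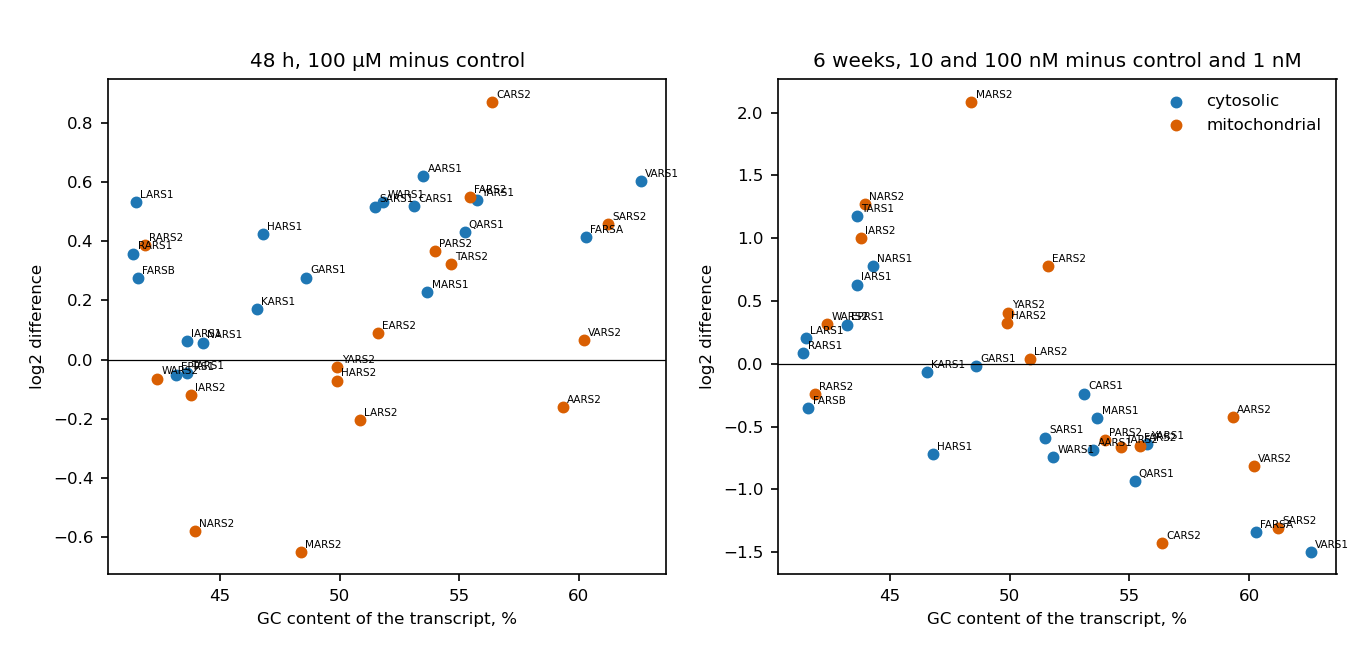
Log2 difference of each synthetase against the GC content of its transcript in percent, at 100 µM for 48 h (left) and for 10 and 100 nM against control and 1 nM at 6 weeks (right). On the right, members near 44% GC such as TARS1 and NARS2 lie above 0 and members above 60% such as VARS1 and SARS2 below it, while on the left VARS1 and SARS2 lie above 0 and NARS2 and MARS2 below.

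When the first principal component was held as a covariate at 48 h, all 13 ATF4-listed members were higher at 100 µM, with a median log2 difference of 0.33. Of them 8 had an unadjusted p under 0.05, against 16.5% of all genes. Of the 6 other cytosolic members, 5 were higher, with a median of 0.14, and 0 had an unadjusted p under 0.05. LARS1 differed by 0.56 ± 0.16 in that fit (limma adjusted p = 0.197), and no gene passed. With the GC and length correction at 100 µM, 13 of 13 listed and 6 of 6 other cytosolic members were higher, with medians of 0.487 and 0.379. With the covariate at 10 µM, 10 of 13 listed and 4 of 6 other members were higher, with medians of 0.155 and 0.122. The gap between the 2 sets thus depended on dose and setting. This covariate is computed from the same libraries and takes up part of any dose effect that lies along it. At 6 weeks the same covariate left -0.04 for TARS1, 0.10 for FARSA and 0.07 for SARS2 in the comparison of 10 and 100 nM with control and 1 nM, so these genes did not keep their directions.

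The balance between ATF4-listed and other cytosolic members differed between 12 weeks and 48 h, in treated and control libraries alike. In each library, the mean log2 level of the 13 ATF4-listed members was set against that of the 6 other cytosolic members. A single factor per library cancels in this difference, but a library effect that varies between genes does not. This difference was 0.09 on average at 48 h (range -0.67 to 0.47), 0.25 at 6 weeks (-0.34 to 0.64) and 1.19 at 12 weeks (0.63 to 1.67). In the controls alone it averaged 0.10, 0.06 and 0.97, so these did not rise from 48 h to 6 weeks. The 6-week average joins 0.06 in the control and 0.03 at 1 nM with 0.54 at 10 nM and 0.39 at 100 nM. The first 1 nM library, with 0.750 normalised counts per recovered read, stood at 0.53. The other 1 nM libraries, with 1.33 and 1.65, stood at -0.18 and -0.28. At 48 h the lowest value came from a library with 1.74 counts per read and the highest from one with 0.763. At 12 weeks these were 1.85 and 0.783. The part of library scaling in the balance was not tested. The 12-week and 48 h libraries did not overlap, and of the 12-week libraries the lowest, a control at 0.63, lay just under the highest 6-week library at 0.64. Cytosolic members together averaged 2806 CPM of recovered reads at 48 h, 3335 at 6 weeks and 4668 at 12 weeks, and mitochondrial members 487, 528 and 444 CPM.

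**Figure D5:**
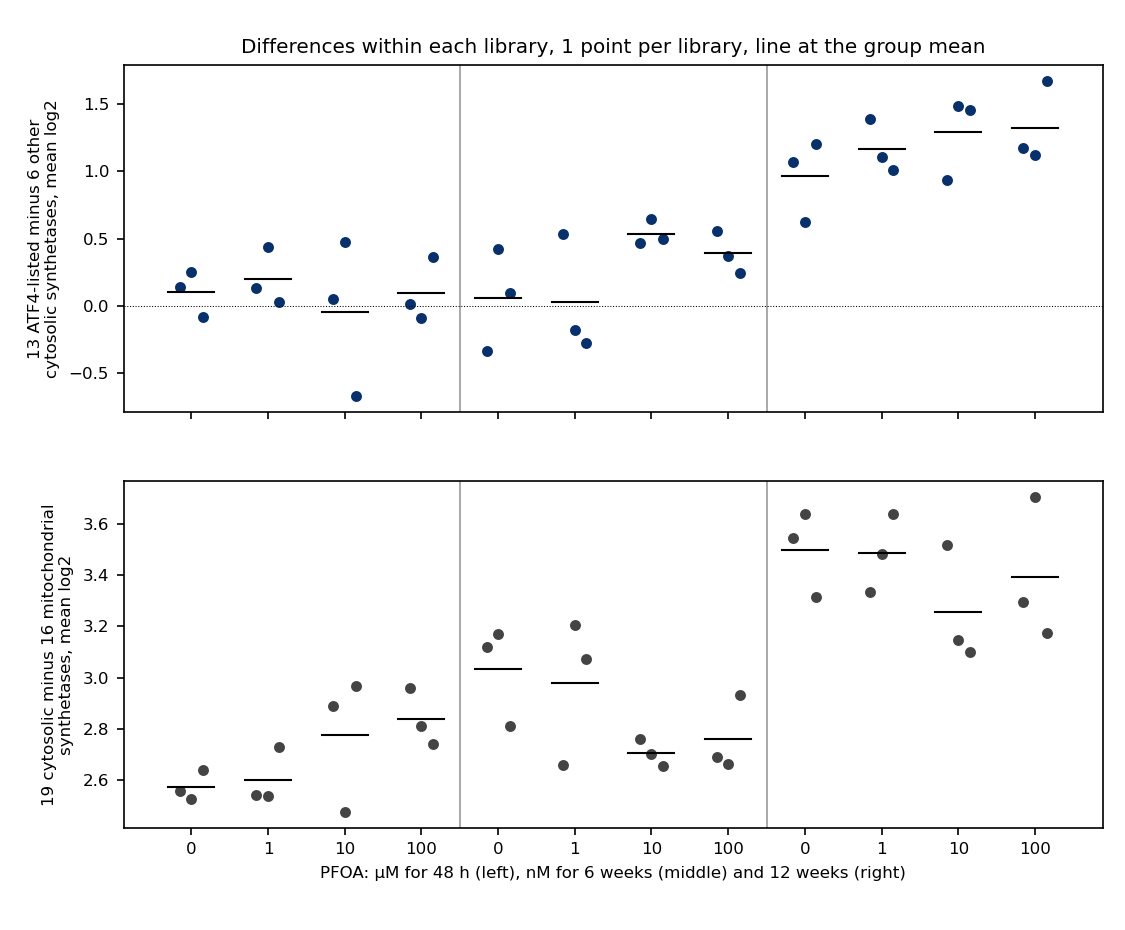
Above, mean log2 level of the 13 ATF4-listed cytosolic synthetases minus that of the 6 other cytosolic synthetases in each library; below, mean log2 level of the 19 cytosolic minus that of the 16 mitochondrial synthetases. Points are libraries in groups of 3 by dose, with a line at the group mean, and the 12-week libraries lie from 0.63 to 1.67 in the upper panel, against -0.67 to 0.47 at 48 h.

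In the controls alone, all 13 ATF4-listed members had a higher mean at 12 weeks than at 48 h, with a median log2 difference of 1.18, and 8 of them did not overlap, against 11.9% of all genes upward. SARS1 had 11348, 14801 and 8035 counts in 12-week controls, against 3301, 2868 and 3423 in 48 h controls. YARS1, the tyrosyl enzyme, differed by 1.87, WARS1 by 1.79, AARS1 by 1.62, and GARS1 and MARS1 by 1.38 each. Of the 6 other cytosolic members, 5 were higher too, with a median of 0.25, and of the 16 mitochondrial members 8, with a median of -0.15. Among these, FARSB (0.43), CARS2 (1.43) and PARS2 (1.06) lay wholly higher at 12 weeks, and EARS2 (-1.04) wholly lower. Upward this was 16.7% of other cytosolic and 12.5% of mitochondrial members, against 11.9% of all genes. Downward it was 0 and 6.25%, against 12.6%, so these 2 sets did not stand out from all genes.

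Over all 12 libraries of each time, CARS1, GARS1, MARS1 and YARS1 were the 4 members wholly higher at 12 weeks than at 48 h, against 2.42% of all genes. YARS1 ranged from 5243 to 12769 counts with a median of 8549 at 12 weeks, against 2029 to 4914 with a median of 2669 at 48 h. MARS1 ranged from 7539 to 14108 with a median of 9511 at 12 weeks, against 3400.3 to 5745 with a median of 3993 at 48 h. Between 12 and 6 weeks, which share the mode of harvest, CARS1, MARS1, SARS1, WARS1 and YARS1 were the 5 ATF4-listed members that did not overlap in the controls, against 6.3% of all genes, with log2 differences of 0.47, 0.77, 1.12, 0.98 and 0.86. Over all 12 libraries of each of these times, 0 of the 13 lay wholly higher (1.68% of all genes), with 13 of 13 means higher and a median of 0.78. The times were deposited in separate tables that may have been scaled separately, so no test was made between them. Levels and log2 differences between times could therefore include a difference of scale. Over all genes the median log2 difference between controls was -0.01 for 12 weeks against 48 h and 0.003 for 12 against 6 weeks. The vehicle controls received no PFOA, so the shifts seen in them were not shifts with PFOA exposure.

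Other genes of the amino acid stress response also mostly stood higher in 12-week than in 48 h controls. Of 16 listed genes, 14 were higher in 12-week than in 48 h controls, with a median log2 difference of 2.09, and 13 of them did not overlap (11.9% of all genes upward). ASNS, which makes asparagine, differed by 3.27, CHAC1, which breaks down glutathione, by 5.42, SLC3A2, a subunit of amino acid transporters, by 2.89, and ATF4 itself by 1.61. EIF2AK4, the kinase that senses uncharged transfer RNA, was the gene that lay wholly lower, at -0.74 (12.6% of all genes downward). Among tRNA partners, DTD1, which removes D-amino acids from transfer RNA, was 0.85 higher, and the scaffold gene AIMP2 0.88 higher, both without overlap. Between 12-week and 6-week controls, which share the mode of harvest, 14 of the 16 stress genes were higher (median 1.45). Of these genes 7 lay wholly higher and 1 wholly lower, against 6.3% and 6.53% of all genes. Between 6-week and 48 h controls 12 of 16 were higher (median 0.69), whereas the balance of listed synthetases did not rise there.

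Partners of the synthetases were called at 6 weeks alongside them, for 10 and 100 nM against control and 1 nM. Over the 8 lists 15 of 48 genes passed, 3 higher and 12 lower (31.2%, against 37.2% of all genes), so their share was no larger than that of all genes. EEF1D and EEF1G, subunits of the factor that recharges the elongation factor for transfer RNA delivery, fell by 1.40 and 1.07 on the log2 scale (2 of 4 genes of cytosolic delivery), and TUFM, the mitochondrial elongation factor, fell by 0.97 (1 of 2). XPOT, which exports transfer RNA from the nucleus, rose by 0.98, and AARSD1, which clears mischarged transfer RNA for alanine, fell by 0.86. Of 10 genes of mitochondrial tRNA maturation, TRMU and HSD17B10 fell, by 1.55 and 1.45. BRF1 and MAF1, a component and a repressor of RNA polymerase III transcription, both fell, by 1.03 each (2 of 6 genes of tRNA synthesis), GATC was 1 of 4 genes of mitochondrial transamidation and formylation that fell, and 0 of 3 scaffold genes passed. In the amino acid stress list 2 genes rose, SLC7A11 by 1.26 and EIF2AK3 by 1.02, and 3 fell, CHAC1 by 1.75, PHGDH by 1.21 and SLC3A2 by 1.02 (limma adjusted p of 0.0462 to 0.0482 for these partner genes).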

How the data were processed

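RNA-seq values were analysed for 36 libraries in 12 groups of 3, and each exposure time had been deposited as its own table. The values are a normalised signal, that is read counts scaled by the authors to a size factor of each library, per the file headers. HISAT, Bowtie2, DESeq2 and build GRCh38.p14 are named in the submitters' processing notes; for the counter, its annotation and its strand setting, a statement is not given in the sources used here. Of 47137 named entries, 18048 had values. Within a library the values were whole multiples of 1 step (tolerance 0.01), so whole reads were recovered and gave the depths. The labels do not say what separated the biological replicates, so p-values measure the spread between these samples.

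Each time was fitted over its 12 libraries with limma 3.58.1 (R 4.3.3; moderated test with a trend, two-sided) on log2(signal + 1), for genes with a mean of at least 10. P-values were adjusted by Benjamini-Hochberg over all genes tested, at a threshold of 0.05. The added 1 makes log2 differences of low genes too small. Doses of 10 and 100 were also set against control and 1, a slope was fitted through the 4 dose groups, and the 24 long-exposure libraries were fitted jointly for the difference between 6 and 12 weeks. Separation of 3 against 3 libraries has a smallest exact permutation p of 0.1. The fits were tested on simulated data. Alternatives were pseudocounts of 0.1 and 10, no filter, a mean of at least 50, quantile normalisation, a replicate block, the first principal component as a term, a correction for GC content and length (spline of 5 degrees of freedom, GENCODE release 29) with and without the block, only the groups compared, edgeR 4.0.16 and DESeq2 1.42.0 on recovered reads, and each library left out. Named members were those past the threshold, up to 8 in each direction, and otherwise the 3 of each class with the smallest p, given as not passing. Other members named for their level or spread were chosen after their values were seen. The members, the gene lists and the dose split were chosen with earlier results of these data known.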

Additional observations from a re-analysis of the deposited data

How the results depend on the processing

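With 3 libraries a group and standard errors near 0.4 in many members, small differences were not detectable, and MARS2 rested on few reads. At 6 weeks, 13 members were called for 10 and 100 nM against control and 1 nM. The number was 0 with no filter, with the first principal component, and with the GC and length correction, alone or with the block, 8 in edgeR and 20 in DESeq2. Leaving out 1 library gave 0 to 27 calls (27 without 1 nM replicate 1, 15 without control replicate 2, 0 otherwise). For 10 nM against control, 0 members were called, but 11 with only the groups compared and 7 in DESeq2. For the slope, 0 were called, but 10 in DESeq2 and 0 to 21 with 1 library left out (21 without 1 nM replicate 1). Where fewer libraries or more genes entered a fit its construction differed; otherwise the cause was not tested.

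The cytosolic minus mitochondrial difference under quantile normalisation was 0.136 at 100 µM for 48 h, 0.22 and 0.187 at 10 and 100 nM for 6 weeks, and 0.155 and 0.07 at 1 and 10 nM for 12 weeks. With the first principal component it was -0.06 and -0.07 at 10 and 100 nM for 6 weeks. With the GC and length correction, alone or with the block, it was -0.583 and -0.459 there.

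With the first principal component as a term, directions reversed at 6 weeks for VARS1 (0.09), NARS1 (-0.0024) and FARSA (0.29) at 10 nM, and for FARSA (0.10) and SARS2 (0.07) at 100 nM. For 10 and 100 nM against control and 1 nM they reversed for NARS2 (-0.04), TARS1 (-0.04), SARS2 (0.07), FARSA (0.10) and QARS1 (0.05), and for the slope in FARSA (0.04), TARS1 (-0.0013) and SARS2 (0.03). VARS1 reached 0.08 at 12 weeks for 10 and 100 nM, and FARSA -0.10 and TARS1 0.04 for the difference between 12 and 6 weeks at 10 nM. Leaving out 1 library took EARS2 at 1 µM through -0.03 to 0.53 and MARS1 at 1 nM for 6 weeks through -0.03 to 0.40. Of 115 single-gene results, 115 kept direction and side of the threshold at either pseudocount and with a mean of at least 50, 111 under quantile normalisation, 109 in edgeR, 105 in DESeq2 and 102 without the filter.

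With a replicate block, 128 of 142 results kept direction and side of the threshold, 13 single genes no longer passed, and the 13 calls at 6 weeks became 0. Libraries of the same number did not deviate together: their correlations ran from -0.892 to 0.892 and were over 0.1 in 7 of 18 pairs at 48 h, 5 at 6 weeks and 8 at 12 weeks. Of 12 libraries at each time, 4, 0 and 3 correlated best with their own number. The numbers therefore were not used to pair samples.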

Other observations

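HARS1 and HARS2, the cytosolic and mitochondrial histidyl enzymes, are neighbours on chromosome 5, at 140673905 to 140691370 and 140691455 to 140699305 (GRCh38.p14), and stood apart in direction at 6 weeks. HARS1 had 2668, 2186 and 2084 normalised counts at 10 nM, against 5249, 3508 and 3030.2 in the control. HARS2 had 799, 815 and 805 counts at 10 nM, against 599.7, 631 and 635 in the control. Neither gene overlapped, HARS1 lying below and HARS2 above the control. Of all genes, 29.8% lay wholly below and 30.6% wholly above the control at that dose, so either position was common. For 10 and 100 nM against control and 1 nM, HARS1 fell by 0.72 ± 0.25 on the log2 scale, and HARS2 differed by 0.33 ± 0.16 without passing (limma adjusted p = 0.101). Under quantile normalisation HARS1 differed by -0.21 and HARS2 by 0.38, and neither passed (limma adjusted p = 0.267 and 0.0683). This pair was picked after its values were seen, and the difference between the genes was not tested.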
